A study of Mus musculus with 12 samples.

Results

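The 6 genes described here are Orm1, Malt1, A4galt, Apbb3, Rassf9 and Atrnl1. Their change after exercise was smaller in the plantaris of REDD1 knockout mice than in that of wild-type mice. These 6 genes, of 22180 on the array with a single gene symbol, were chosen by their measured exercise changes in both genotypes together with their resting levels. Those changes and levels are therefore given as a description, without a test, and they support nothing further. The study used male mice aged 12 weeks, all deprived of food for 3 hours. There were 4 groups of 3 arrays, since mice of each genotype either stayed sedentary or underwent 1 acute aerobic exercise bout, and the muscle was taken 1 hour after the bout ended. The sources used here do not give the strain, the deleted part of the gene or the tissue range of the deletion, and no label names pooled animals, litters or a hybridisation batch. No label says how the 3 samples of a group relate, so p-values measure the spread between these samples, which may be technical.

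REDD1, encoded by Ddit4, is a stress-induced protein that restrains mTORC1, the kinase complex that promotes protein synthesis, and its transcription is driven by glucocorticoids, hypoxia and energy stress. The plantaris is a calf muscle rich in fast fibres, and a bout of endurance exercise changes transcription in working muscle within the first hours. The 6 genes are not known as members of a single pathway. Orm1 encodes orosomucoid, an acute-phase plasma glycoprotein made mainly by liver and induced by glucocorticoids and cytokines. Malt1 encodes the paracaspase that acts with BCL10 and CARD proteins upstream of NF-kappaB. A4galt encodes the galactosyltransferase that makes the glycolipid globotriaosylceramide. Apbb3 encodes a Fe65-family adaptor that binds the amyloid precursor protein, Rassf9 a Ras-association domain protein first found as a partner of the peptide-amidating enzyme PAM, and Atrnl1 a transmembrane protein related to attractin.

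The reference sequences show the upstream regions of a gene that rose and a gene that fell in wild type. They are shown for 2 of the 6 genes, A4galt and Atrnl1, from the RefSeq promoter table of build GRCm38.p6. The A4galt region is chr15:83251730-83251979 on the minus strand and the Atrnl1 region is chr19:57610784-57610959 on the plus strand. Both are printed 5′ to 3′ and end just before the outermost annotated start of the gene. Capitals mark a match to TGACTCA, the core bound by AP-1 factors.
A4galt: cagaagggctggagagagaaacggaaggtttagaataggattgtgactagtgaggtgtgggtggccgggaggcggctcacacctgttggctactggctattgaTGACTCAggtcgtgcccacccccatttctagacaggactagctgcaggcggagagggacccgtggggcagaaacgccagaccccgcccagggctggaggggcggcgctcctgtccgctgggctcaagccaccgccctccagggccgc
Atrnl1: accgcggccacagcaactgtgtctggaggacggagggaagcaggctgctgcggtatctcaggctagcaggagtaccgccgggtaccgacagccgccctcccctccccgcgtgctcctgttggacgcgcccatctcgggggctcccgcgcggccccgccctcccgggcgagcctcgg

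Letters of 5 motifs were looked for on both strands. For AP-1 they were TGACTCA. For the glucocorticoid receptor they were TGTTCT, a short half-site. The half-site of CREB was searched as TGACG. The E-box was searched as CACGTG and the GC box as GGGCGG. No motif's match overlapped another's. The motifs were chosen with the sequences in view. The A4galt region held TGACTCA 1 time, starting 147 bases before the gene, and 4.46% of 32851 RefSeq windows of 250 bases held it on either strand. It held GGGCGG 3 times, a motif present in 32.7% of those windows. The Atrnl1 region held GGGCGG 2 times, present in 20.4% of windows of 176 bases, and none of the other letters. The shares of windows of 250 bases with the glucocorticoid receptor, CREB and E-box letters were 16.1%, 17.8% and 6.02%. For windows of 176 bases they were 11.8%, 10.3% and 3.58%, with 3.05% for the AP-1 letters. Both regions were rich in G and C, at 64.0% and 73.3%, against medians of 52.4% and 51.1% over windows of the same lengths. The windows of 176 bases were the first 176 bases of each RefSeq window. They need not end at a gene start, as the Atrnl1 region does, so shares and medians are matched in length only. A match is a description of the letters and not a binding site.

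The arrays gave log2 expression values per transcript cluster, with array medians between 4.52 and 4.60. A gene was tested if it exceeded the table median of 4.56 on at least 3 arrays, which 13747 genes did. All 6 genes passed, 5 of them on all 12 arrays and Rassf9 on 11. Each was represented by 1 transcript cluster, so no other row of the table gives a separate reading of them. The 10 fast-fibre markers, such as Acta1, Ckm and Myh4, were above the table median on every array. Ddit4 was 1.63-fold lower in knockout than in wild-type sedentary muscle and 5.18-fold lower in exercised muscle, with no overlap in either condition; limma called the exercised difference (adjusted p = 0.00011) but not the resting one (adjusted p = 0.411). Ddit4 signal was present in the knockout and was 2.05-fold higher after exercise there (1.04, SE 0.22, not called), with an exercised mean of 6.32 against 5.99 in wild-type sedentary muscle. Whether the array's probes lie in the deleted part is not given in the sources used here. Of the arrays, knockout sedentary replicate 3 stood apart in its matrix and fibroblast markers, 0.71 above the mean of the 12 arrays against 0.10 and -0.09 in the rest of its group. Wild-type exercised replicate 1 stood apart in its immediate-early genes, at 0.85 against 0.08 and 0.25. The difference of exercise effects for each of the 6 genes is given with and without each of these arrays. Some list values are also given without 1 of them.

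The first question is what exercise did to these genes when REDD1 was present. In wild-type muscle, 4 of the 6 were higher after exercise (Orm1, Malt1, A4galt and Apbb3) and 2 were lower (Rassf9 and Atrnl1), by between 1.57-fold and 2.31-fold. Limma called all 6 at an adjusted p under 0.05, where it called 78 of 13747 genes, or 0.567%. All 6 had sedentary and exercised arrays without overlap, as did 12.9% of tested genes. Since this contrast chose the genes, both counts only restate the choice. In knockout muscle the same 4 stood higher and the same 2 lower on average, and none was called, against 0.276% of tested genes. Sedentary and exercised knockout arrays did not overlap for 2 of the 6, Apbb3 and Rassf9, where 13.9% of all tested genes showed no overlap.

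Orm1, the acute-phase glycoprotein gene, was higher after exercise in wild type and near its resting level in the knockout. On the log2 scale its values were 6.18, 6.44 and 6.40 in wild-type sedentary muscle and 7.38, 7.30 and 7.90 in wild-type exercised muscle. They were 6.20, 6.43 and 6.23 in knockout sedentary muscle and 6.19, 6.45 and 6.71 in knockout exercised muscle. Only the 3 wild-type exercised arrays were high, and the other 9 lay between 6.18 and 6.71. The change was 2.27-fold in wild type (log2 fold change 1.18, SE 0.16) and 1.12-fold in the knockout (0.16, SE 0.16), a difference of -1.02 (SE 0.23). The knockout was level with wild type at rest (-0.06, SE 0.16) and 2.11-fold lower after exercise (-1.08, SE 0.16).

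Malt1, the paracaspase gene, stood at 6.37, 6.24 and 6.67 in wild-type sedentary muscle and at 7.25, 7.50 and 7.50 after exercise. In the knockout it was 6.80, 6.68 and 6.12 at rest and 6.79, 6.73 and 6.82 after exercise. Again only wild-type exercised muscle was high. Among the knockout arrays the low value was that of sedentary replicate 3, whose matrix markers were high, and the others lay within 6.68 to 6.82. The change was 1.99-fold in wild type (0.99, SE 0.16) and 1.19-fold in the knockout (0.25, SE 0.16), a difference of -0.74 (SE 0.22). Without knockout sedentary replicate 3 the knockout change was 0.04 and the difference -0.95. The resting difference between genotypes was 0.11 (SE 0.16) with that array and 0.31 without it.

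A4galt, the globotriaosylceramide synthase gene whose upstream region is printed above, was 6.53, 6.58 and 6.46 in wild-type sedentary muscle. It was 7.47, 7.14 and 7.34 in wild-type exercised muscle, without overlap. Knockout levels overlapped between conditions, at 6.75, 6.52 and 6.87 at rest and 6.78, 6.72 and 6.99 after exercise. The rise was 1.73-fold in wild type (0.79, SE 0.12), against 1.08-fold in the knockout (0.11, SE 0.12), a difference of -0.68 (SE 0.17). The knockout's resting mean lay 0.19 above wild type (SE 0.12) and its exercised mean 0.49 below (SE 0.12).

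Apbb3, the Fe65-family adaptor gene, kept part of its rise. It was 5.62, 5.88 and 5.78 in wild-type sedentary muscle and 6.98, 6.95 and 6.97 after exercise, an SD of 0.13 at rest and 0.01 after exercise. In the knockout it was 6.05, 5.80 and 5.86 at rest and 6.58, 6.25 and 6.47 after exercise. The 4 groups formed steps: the resting groups overlapped, the knockout exercised arrays lay above both, and the wild-type exercised arrays lay above all others. The change was 2.31-fold in wild type (1.20, SE 0.11) and 1.44-fold in the knockout (0.52, SE 0.11), a difference of -0.68 (SE 0.16).

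**Figure D1:**
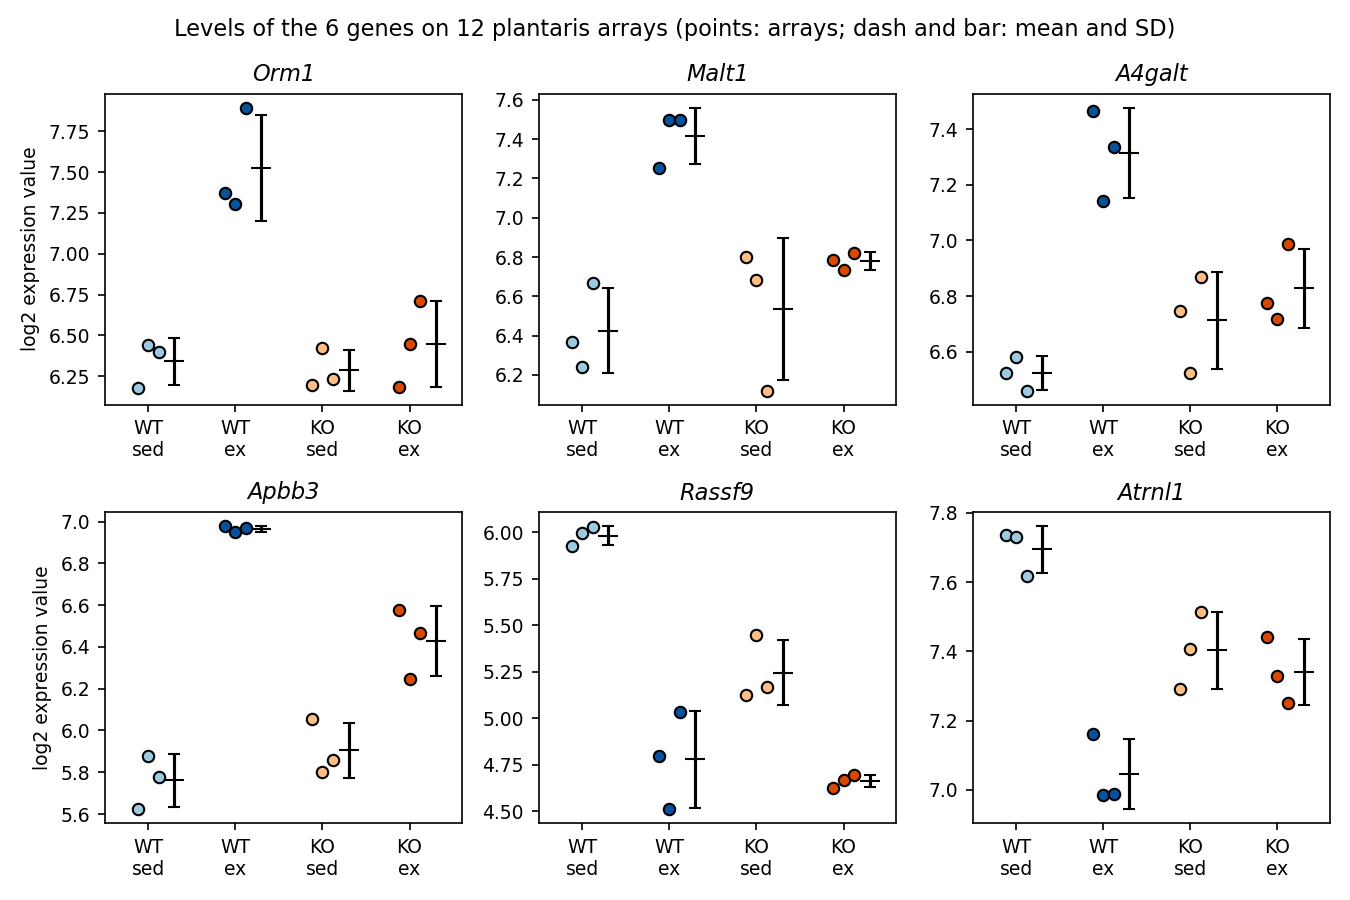
Log2 expression values of the 6 genes on each of the 12 arrays, with the mean and SD of the 3 arrays of a group beside the points (WT, wild type; KO, REDD1 knockout; sed, sedentary; ex, exercised). Wild-type exercised arrays stand alone at the top for Orm1, Malt1, A4galt and Apbb3, and wild-type sedentary arrays stand alone at the top for Rassf9 and Atrnl1. The vertical axes differ between genes.

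Rassf9, the Ras-association domain gene, was lower after exercise in wild type and had a lower resting level in the knockout. It was 5.93, 5.99 and 6.03 in wild-type sedentary muscle and 4.80, 4.51 and 5.03 in wild-type exercised muscle. In the knockout it was already lower at rest, at 5.13, 5.45 and 5.17, and was 4.63, 4.67 and 4.69 after exercise. The exercised groups overlapped while the sedentary groups did not. Exercise was followed by a 2.30-fold lower level in wild type (-1.20, SE 0.14) and by a log2 change of -0.58 (SE 0.14) in the knockout, a difference of 0.62 (SE 0.20). The knockout stood 1.67-fold below wild type at rest (-0.74, SE 0.14) and 1.08-fold below it after exercise (-0.12, SE 0.14). One wild-type exercised array, replicate 2 at 4.51, was just below the table median of 4.56, and the 3 knockout exercised arrays were just above it. Whether such dim signal limited the fall that could be read in the knockout was not tested.

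Atrnl1, the attractin-like gene, was lower in the knockout than in wild type at rest and higher after exercise. It was 7.74, 7.73 and 7.62 in wild-type sedentary muscle and 7.16, 6.99 and 6.99 in wild-type exercised muscle. The knockout lay between these groups, at 7.29, 7.41 and 7.51 at rest and 7.44, 7.33 and 7.25 after exercise, with its conditions overlapping. Its fall was 1.57-fold in wild type (-0.65, SE 0.10) and 1.05-fold in the knockout (-0.06, SE 0.10), a difference of 0.59 (SE 0.14). The knockout was 1.22-fold lower than wild type at rest (-0.29, SE 0.10) and 1.23-fold higher after exercise (0.30, SE 0.10), with no overlap in either condition.

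**Figure D2:**
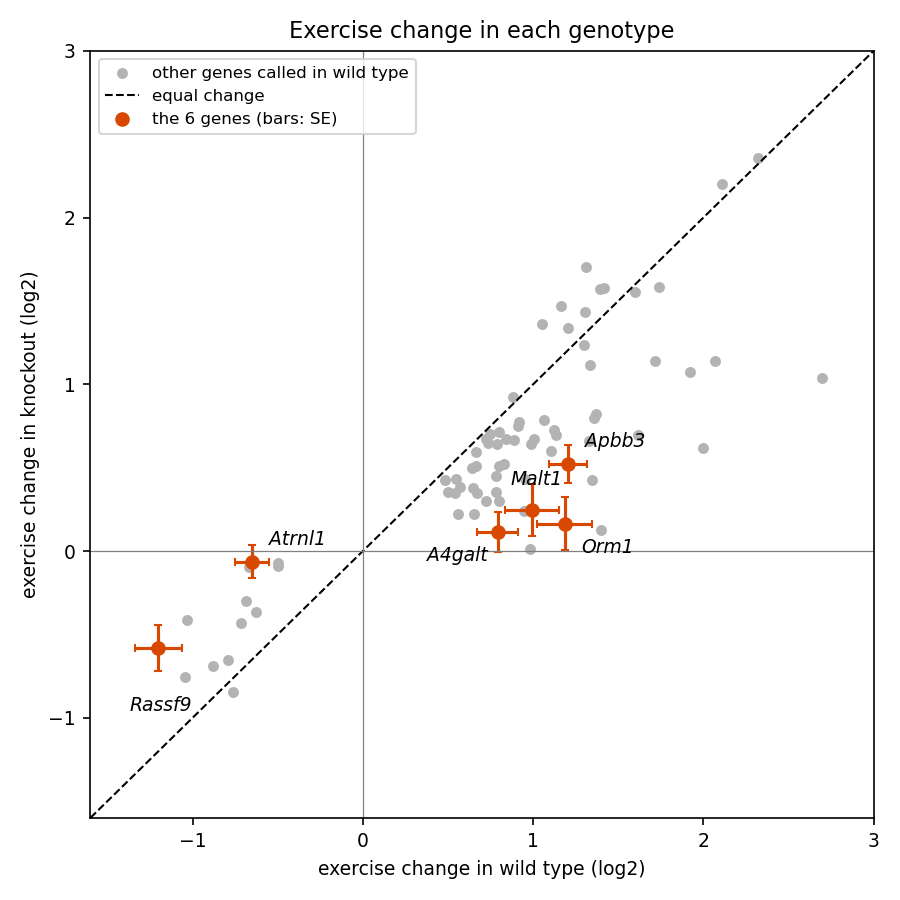
Exercise change in the knockout (vertical axis, log2) against that in wild type (horizontal axis, log2) for the 78 genes called for exercise in wild type; grey points are single genes, orange points with SE bars are the 6 genes described, and the dashed line marks equal change. The 6 genes lie between the dashed line and the line of no change in the knockout, with Atrnl1, Orm1, A4galt and Malt1 nearest to no change.

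The share of the wild-type change seen in the knockout differed among the 6. It was 9.72% for Atrnl1, 13.9% for Orm1, 14.5% for A4galt, 24.9% for Malt1, 43.55% for Apbb3 and 48.45% for Rassf9. A single array moved these shares: leaving out each in turn gave 1.34% to 18.5% for Atrnl1, 2.75% to 25.0% for Orm1, 2.51% to 24.4% for A4galt and 4.05% to 38.2% for Malt1. The ranges of these 4 genes overlap, so their order is not fixed. The share ran from 37.5% to 51.2% for Apbb3 and from 40.1% to 54.5% for Rassf9. Over the 78 wild-type calls the median share was 64.7%, and 67 of them had a smaller change in the knockout. With all arrays, and ranked from the smallest share, the 6 took places 3, 4, 5, 9, 20 and 24 of 78. Choosing genes on the wild-type call tends to lower this share over all of them. The test of the difference of exercise effects itself called none of the 6, nor any other gene: limma called 0 of 13747, or 0%, with a smallest adjusted p of 0.633. The unadjusted p for this difference was under 0.05 for all 6 genes and for 620 tested genes, or 4.51%. The 6 were chosen for that difference, so their count adds nothing to it.

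Set against wild type within each condition, the 6 genes fell into patterns that differ in where the genotypes parted. For Orm1, Malt1, A4galt and Apbb3 the resting groups overlapped and the exercised groups did not, with the knockout lower by 1.40-fold to 2.11-fold after exercise. For Rassf9 it was the reverse, and for Atrnl1 both conditions were without overlap, in opposite directions. At rest, 2 of the 6 had genotypes without overlap, against 13.1% of tested genes, and 0 were called by limma, against 0.138% of tested genes. After exercise, 5 of the 6 had genotypes without overlap, against 11.7% of tested genes, and Orm1 was called, where 0.175% of tested genes were. The call of Orm1 ended without wild-type exercised replicate 3 (-0.89) and without knockout exercised replicate 1 (-0.94). These contrasts share arrays with the exercise contrasts that chose the genes and are not separate support.

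**Figure D3:**
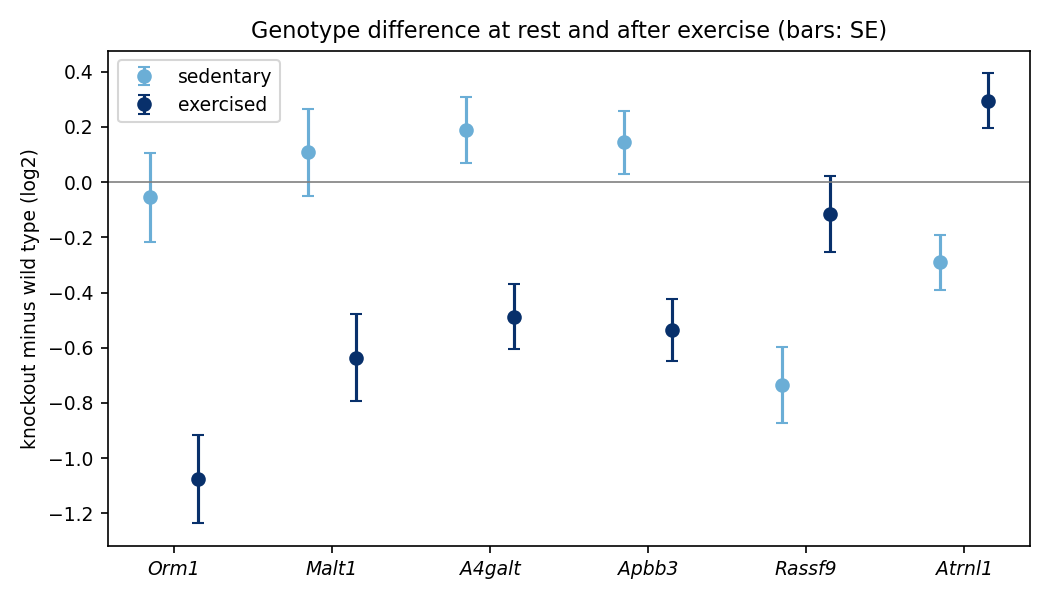
Knockout minus wild type on the log2 scale in sedentary (light) and exercised (dark) muscle for the 6 genes, with SE bars, 3 arrays per group. Malt1, A4galt and Apbb3 lie above 0 at rest and below it after exercise, Orm1 lies at -0.06 and -1.08, Rassf9 lies further below 0 at rest than after exercise, and Atrnl1 changes side.

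Leaving out any 1 of the 12 arrays kept the sign of the difference of exercise effects for each of the 6 genes. The difference ranged from -1.15 to -0.83 for Orm1, from -0.95 to -0.61 for Malt1, from -0.77 to -0.60 for A4galt and from -0.75 to -0.59 for Apbb3. It ranged from 0.49 to 0.75 for Rassf9 and from 0.53 to 0.64 for Atrnl1. Leaving out replicate 1 of the wild-type exercised group gave -1.09 for Orm1, -0.83 for Malt1, -0.60 for A4galt, -0.67 for Apbb3, 0.63 for Rassf9 and 0.64 for Atrnl1. Without knockout sedentary replicate 3 it was -1.05, -0.95, -0.60, -0.70, 0.58 and 0.64 in the same order. The choice of genes fixes these signs, so they are no measure of stability.

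**Figure D4:**
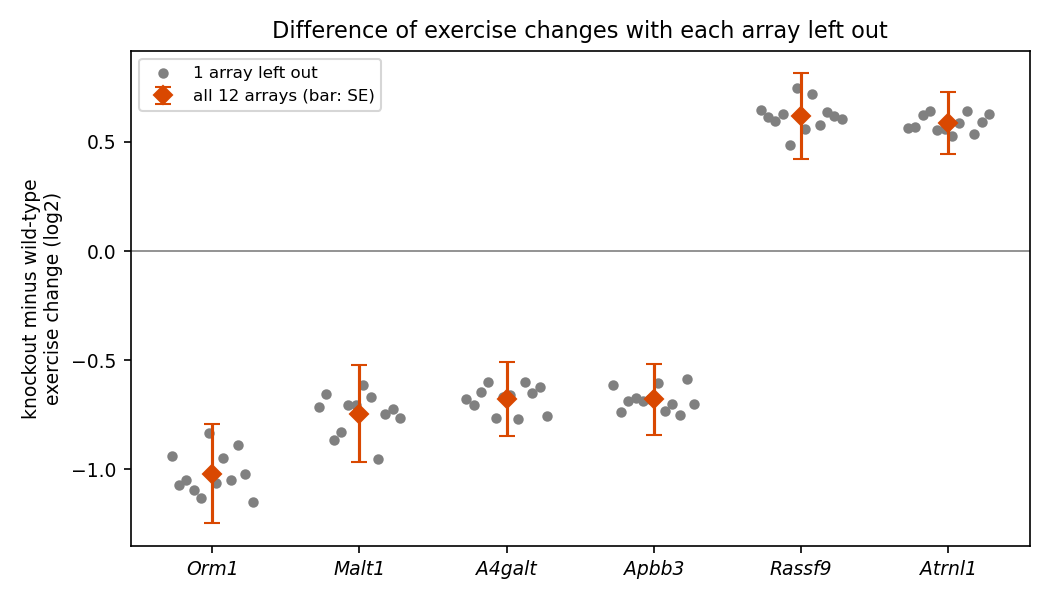
Difference of exercise effects (knockout minus wild type, log2) for the 6 genes with all 12 arrays (orange, with SE) and with each array left out in turn (grey, 12 points per gene). All points of Orm1, Malt1, A4galt and Apbb3 lie below 0 and all points of Rassf9 and Atrnl1 above it.

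After subtracting each group's mean, 8 of the 15 gene pairs had a positive Pearson's r over the 12 arrays, with a median of 0.02 and a range from -0.78 (Malt1 and Atrnl1) to 0.77 (Orm1 and Rassf9). These values describe 12 arrays and share the same RNA samples. Over the 12 arrays with group differences included, the tested genes with a symbol most like each one in level were named by r. Among the features that ranked as high as the first 5 named genes, 2 gene models without a usual symbol were passed over for Malt1 and 1 for Apbb3. They were Tlr5 (0.95) and Ddit4 (0.91) for Orm1, the amino acid transporter gene Slc7a8 (0.93) and Tmem120b (0.90) for Malt1, and Apbb3 (0.90) and Rapgef3 (0.89) for A4galt. For Apbb3 they were the zinc transporter gene Slc39a14 (0.93) and Noct (0.92). Rassf9 was most like Zfp608 (0.93) and Stambpl1 (0.89), and Atrnl1 most like Tmem273 (0.90) and Cep78 (0.89). The exercise changes of Slc7a8 were 1.33 (wild type) and 0.66 (knockout), and those of Tlr5 0.65 and 0.22.

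The other genes of each pathway were followed to see whether the pattern of one gene was that of its list. Among acute-phase plasma protein genes, 7 of 18 were bright enough to test. All 7 had positive values in wild type (median 0.33, against -0.02 over all tested genes) and 4 in the knockout (median 0.08, against -0.00). Limma called 0 of 7 in either genotype, with an unadjusted p under 0.05 for 3 higher genes in wild type and 1 lower gene in the knockout. Without wild-type exercised replicate 1, the wild-type median was 0.22, with 1 higher gene at an unadjusted p under 0.05. For the difference of exercise effects the median was -0.43 with 1 of 7 positive, the direction of Orm1, with 0 called by limma and 3 lower at an unadjusted p under 0.05. Cd14, the lipopolysaccharide co-receptor gene, had the smallest p in wild type, with changes of 0.50 (SE 0.15) in wild type and 0.08 in the knockout. Lbp, the lipopolysaccharide-binding protein gene, was 7.87, 7.40 and 7.94 in knockout sedentary muscle and 7.33, 7.33 and 7.32 after exercise (-0.41, SE 0.13), and its difference of exercise effects was -0.54 (SE 0.19). None of these values of Cd14 and Lbp was called. Hp, the haemoglobin-binding protein haptoglobin, was 5.98, 7.42 and 7.13 in wild-type sedentary and 7.60, 8.05 and 7.12 in wild-type exercised muscle. In the knockout it was 6.88, 7.42 and 7.38 at rest and 6.64, 6.55 and 7.26 after exercise. Its groups overlapped in wild type, and its changes were 0.75 (SE 0.32) and -0.41 (SE 0.32), neither called.

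The paralogues of Orm1 were dim. Orm2 did not exceed the table median on any array and Orm3 did so on 2, both wild-type exercised, so neither was tested. Orm3 was 3.15, 3.24 and 3.11 at rest and 3.41, 4.61 and 5.26 after exercise in wild-type mice. Knockout values were 3.45, 4.07 and 3.93 at rest and 3.94, 3.68 and 3.98 after exercise. The Orm genes are close copies and the probe sequences were not used here, so signal of one could be read by another's probes. Of 9 neutrophil markers, 7 were too dim to test, S100a8, S100a9 and Ly6g among them. The hepatocyte markers tested (5 of 8) lay from -0.33 to -0.03 relative to the mean of the 12 arrays in wild-type sedentary and from 0.00 to 0.12 in wild-type exercised muscle. In the knockout they lay from -0.05 to 0.54 at rest and from -0.16 to 0.07 after exercise. Exercise changes were positive for 5 of these 5 markers in wild type and 0 in the knockout. For the difference of exercise effects 0 of 5 were positive (median -0.28), the direction of Orm1. Limma called 0 of them for that difference, with 1 lower at an unadjusted p under 0.05, the albumin gene. Without knockout sedentary replicate 3, 0 were lower at that unadjusted p, and without wild-type exercised replicate 1, 2 were. Without the former array, 1 of 5 was positive for exercise in the knockout, and the median difference of exercise effects stayed at -0.28. Albumin (Alb) was near the table median on most arrays, at 4.02 to 4.85 in wild type and 4.23 to 4.73 in the knockout, except at 6.20 on knockout sedentary replicate 3. The part of these cells in the Orm1 result was not tested.

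The glucocorticoid receptor targets, to which Orm1 and Ddit4 belong but which exclude both here, were mostly higher after exercise in both genotypes. Of 22 genes, 22 had positive values in wild type (median 0.62) and limma called 7, among them the metallothionein genes Mt2 (2.00, SE 0.18, adjusted p = 6.96e-05) and Mt1 (1.62, SE 0.21) and the clock gene Per1 (1.34, SE 0.18). In the knockout 20 were positive (median 0.46) and 2 were called, the transcription factor genes Cebpd (1.11, SE 0.18, adjusted p = 0.0109) and Cebpb (0.72, SE 0.13). Without knockout sedentary replicate 3, 1 was called there. At rest, 22 of 22 were higher on average in the knockout (median 0.28, against -0.02 over all tested genes, and 0.44 without knockout sedentary replicate 3) and 1 was called, Mt2 (1.29, SE 0.18, adjusted p = 0.00741). The resting difference of Orm1 was -0.06. For the difference of exercise effects the list's median was -0.19, with 7 of 22 positive, 0 called by limma and 4 lower at an unadjusted p under 0.05. Without knockout sedentary replicate 3 that median was -0.21, with 2 of 22 positive and 5 lower at an unadjusted p under 0.05. The earlier account of these data also used such a list, so it is not an independent choice.

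The partners of Malt1 were followed next. Of 24 tested CARD-BCL10-MALT1 and NF-kappaB genes, limma called 0 for exercise in either genotype. In wild type 10 of the 24 were positive (median -0.03), with 2 higher and 2 lower at an unadjusted p under 0.05, and in the knockout 9 were (median -0.05), with 1 in each direction. Nfkbia, the inhibitor of NF-kappaB and one of its targets, was 0.46 higher after exercise in wild type (SE 0.12) and 0.37 higher in the knockout (SE 0.12), and the kinase-binding Tab1 was 0.43 lower (SE 0.11) and 0.26 lower (SE 0.11), none of them called. For the difference of exercise effects 12 of the 24 were positive (median 0.03) and limma called 0, with 1 higher and 2 lower at an unadjusted p under 0.05. The higher was Tnfaip3, which ends NF-kappaB signalling (0.46, SE 0.17). The lower, in the direction of Malt1, were Ikbkg, the regulatory subunit of the IKK complex (-0.36, SE 0.15), and the caspase gene Casp8 (-0.51, SE 0.22). The macrophage and leukocyte markers tested, 10 of 12, had a median of 0.06 in wild type and -0.19 in the knockout (-0.07 without knockout sedentary replicate 3), with 0 called by limma in either and 1 lower at an unadjusted p under 0.05 in the knockout. Fewer cells of a type and less RNA per cell cannot be told apart in whole muscle.

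Among the glycosphingolipid genes around A4galt, limma called 0 of 13 tested for exercise in either genotype (medians 0.06 and -0.09). At an unadjusted p under 0.05, 0 of them passed in wild type and 2 in the knockout. These were Gla, the lysosomal galactosidase that degrades the product of A4galt (0.34, SE 0.12), and Gm2a, the activator protein of ganglioside breakdown (-0.40, SE 0.11), neither called. In wild type, Gla stood 0.24 higher (SE 0.12). For the difference of exercise effects 4 of 13 were positive (median -0.185), the direction of A4galt. Limma called 0 of them for that difference, and Gm2a was lower at an unadjusted p under 0.05 (-0.46, SE 0.16). Without knockout sedentary replicate 3, 3 of 13 were positive (median -0.10), with 1 lower at that unadjusted p. The endothelial markers, tested because globotriaosylceramide is abundant on endothelium, had medians of -0.11 in wild type and -0.25 in the knockout, with Kdr lower in both (-0.76 and -0.84, SE 0.12 each, adjusted p = 0.00582 and 0.00492). Of the 12 markers, 5 were positive in wild type and 1 in the knockout, and limma called only Kdr in each. As a list mean they lay from 0.07 to 0.12 in wild-type sedentary muscle and at -0.06 on all 3 wild-type exercised arrays. In the knockout the list mean went from a range of 0.09 to 0.14 to one of -0.21 to -0.03. The part of endothelial cells in the A4galt result was not tested.

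For Apbb3, limma called 0 of 20 amyloid precursor protein and adaptor genes for exercise in either genotype (medians -0.02 and -0.04), with an unadjusted p under 0.05 for 1 lower gene in wild type and 2 lower genes in the knockout. For the difference of exercise effects 6 of the 20 were positive (median -0.05), the direction of Apbb3. Limma called 0 of them, with 1 lower at an unadjusted p under 0.05. Without knockout sedentary replicate 3, 10 of the 20 were positive (median 0.00) and 0 passed that unadjusted p. Of the related adaptors, the mean of Apbb1 went from 5.27 to 5.41 in wild type and from 5.49 to 5.43 in the knockout. Apbb2 had changes of -0.27 (SE 0.10) and -0.09 (SE 0.10), neither called. In the reference gene table Apbb3 lies beside Sra1 and overlaps Slc35a4. Sra1 was 6.56, 6.70 and 6.40 at rest and 6.90, 6.99 and 7.26 after exercise in wild-type mice. Knockout values were 7.11, 6.35 and 6.59 at rest and 6.94, 6.75 and 6.81 after exercise. Its changes of 0.50 and 0.15 were not called. Slc35a4 differed by 0.08 in wild type and -0.05 in the knockout. Of the 12 nearest measured protein-coding neighbours of the 6 genes, none was called by limma in any of the 5 contrasts, Orm3, Nts and Alx1 being too dim to test. Cyb5r3, beside A4galt, had exercise changes of 0.11 in wild type and -0.52 in the knockout, a difference of -0.63. At rest it stood 0.59 higher in the knockout.

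Around Rassf9, limma called 0 of 16 tested RASSF and Hippo kinase genes for exercise in either genotype (medians -0.00 and -0.03). At an unadjusted p under 0.05 there were 1 higher and 1 lower gene in wild type and 0 in the knockout. For the difference of exercise effects 7 of the 16 were positive (median -0.02), with 0 called by limma and 0 under that unadjusted p. Rassf10, from the same branch of the family, was not above the table median on any array. The family members Rassf7 (mean 5.65) and Rassf8 (mean 6.32) were above it on all 12 arrays and are among the genes tested. Pam, which encodes the enzyme that Rassf9 binds, had means of 8.19 (sedentary) and 8.18 (exercised) in wild type, against 8.17 and 8.03 in the knockout. Rassf4 was 5.39, 5.60 and 5.86 at rest and 6.68, 6.03 and 6.14 after exercise in wild type (0.67, SE 0.20, not called), the opposite direction to Rassf9. In the attractin and melanocortin list only 6 of 13 genes were bright enough to test, and limma called 0 of 6 for exercise in either genotype (medians -0.10 and -0.06), with 1 higher in wild type and 1 lower in the knockout at an unadjusted p under 0.05. For the difference of exercise effects 3 of 6 were positive (median 0.04), with 0 called by limma and 2 lower at an unadjusted p under 0.05, opposite in sign to Atrnl1. These were Mrap, a melanocortin receptor accessory protein gene (-0.87, SE 0.21), and the syndecan gene Sdc3 (-0.44, SE 0.19). Without wild-type exercised replicate 1, the list's median was 0.06 for exercise in wild type and -0.04 for the difference. Mrap had changes of 0.61 (SE 0.15) in wild type and -0.26 (SE 0.15) in the knockout, neither called. Atrn, the paralogue of Atrnl1, went from a mean of 7.58 to 7.35 in wild type and from 7.49 to 7.41 in the knockout, with overlapping arrays in the knockout. Of 6 neuron markers 5 were too dim to test. The 5 tested Schwann cell and nerve markers varied widely within groups, from -0.46 to 0.78 in wild-type exercised muscle, and their part in the Atrnl1 result was not tested.

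Markers of several other cell types had lower exercise effects in the knockout, the direction of the 4 genes that rose in wild type. For the difference of exercise effects, 0 of 11 matrix and fibroblast markers were positive (median -0.49), with 6 lower at an unadjusted p under 0.05. None of 10 macrophage and leukocyte markers was positive (median -0.28, 1 lower), none of 6 adipocyte markers (median -0.54, 0 lower) and none of 8 smooth muscle and pericyte markers (median -0.37, 0 lower). Limma called 0 markers of these 4 lists for that difference. Among fast-fibre markers 7 of 10 were positive (median 0.03), and among endothelial markers 3 of 12 were (median -0.12). In both of these lists 0 were called by limma and 0 had an unadjusted p under 0.05. Without knockout sedentary replicate 3, the matrix median was -0.26, with 1 of 11 positive and 2 lower at an unadjusted p under 0.05. The medians were then -0.21 (macrophage and leukocyte), -0.47 (adipocyte) and -0.35 (smooth muscle and pericyte). Of the macrophage and leukocyte markers, 1 of 10 was then positive and 0 were lower at that unadjusted p. Without wild-type exercised replicate 1 the matrix median was -0.33 and the smooth muscle and pericyte median -0.20. The Schwann cell and nerve median was -0.57 with all arrays, -0.10 without the former array and -0.12 without the latter, with 0 of 5 under an unadjusted p of 0.05. Matrix markers lay from -0.09 to 0.71 in knockout sedentary muscle and from -0.20 to -0.14 in knockout exercised muscle, and from -0.13 to -0.08 and from -0.07 to 0.09 in wild type. The highest of these values was that of knockout sedentary replicate 3. The part of these cell types in the results was not tested.

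**Figure D5:**
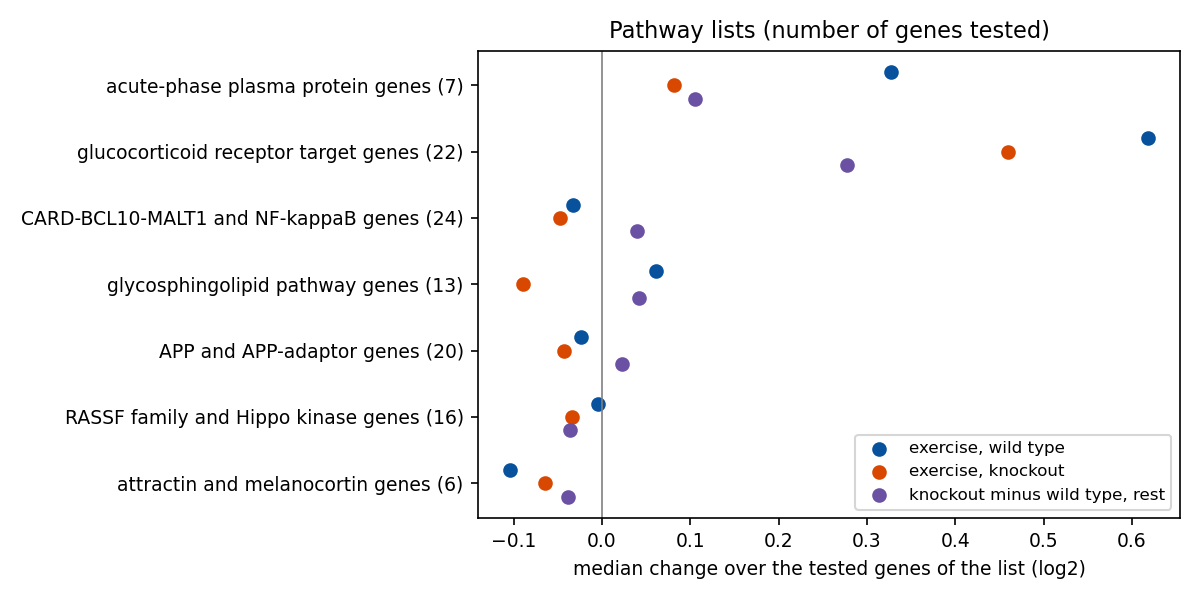
Median log2 change over the tested genes of 7 pathway lists (number of genes in brackets) for exercise in wild type (blue), exercise in the knockout (orange) and knockout minus wild type at rest (purple). The glucocorticoid receptor targets lie at 0.62, 0.46 and 0.28, the acute-phase genes at 0.33, 0.08 and 0.11, and the other 5 lists between -0.10 and 0.06.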

How the data were processed

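The deposited table holds log2 expression values per transcript cluster for 12 plantaris arrays; the log2 scale was read from the range of 0.36 to 13.9. Per the labels' protocols, total RNA was labelled with a whole-transcript kit; Partek is named, without a version, in the submitters' processing notes. Background correction, normalization, summarization and build are not given in the sources used here. Platform annotation paired 23521 of 41345 clusters with 1 symbol; a gene's row with the highest mean was used (22180 genes).

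Limma 3.58.1 in R 4.3.3 fitted 1 mean per group over 13747 tested genes, with 8 residual degrees of freedom and an intensity trend. From it came 5 contrasts, Benjamini-Hochberg adjusted within each over all tested genes and called under 0.05. The fit was tested on simulated data. Array number limits precision. The members and lists were chosen with earlier results of these data known. Named genes were the 6 genes, their paralogues, neighbours, Ddit4, nearest genes by Pearson's r, and the list genes with the smallest p in a contrast; Pam, Alb, Casp8 and the choice among contrasts came after values were seen. Alternatives varied the filter, scaling, variance prior, samples, row choice and arrays.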

Additional observations from a re-analysis of the deposited data

How the results depend on the processing

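Single arrays moved the small knockout changes several-fold: leave-one-out fits gave 0.03 to 0.30 for Orm1, 0.04 to 0.38 for Malt1, 0.02 to 0.19 for A4galt and -0.12 to -0.01 for Atrnl1. Signs near 0 turned in leave-one-out fits: Malt1 at rest reached -0.02 without knockout sedentary replicate 1, and Rassf9 after exercise 0.01 without wild-type exercised replicate 3, neither called. All 6 kept their wild-type exercise call in 12 of 12 leave-one-out fits. This contrast chose the genes, so the kept calls restate the choice and are no measure of stability. Leaving out a knockout array cannot move the wild-type change, only its estimated spread. Rassf9 was called at rest in 3 of 12, and Apbb3 for exercise in the knockout in 1 of 12, at 0.62 without knockout exercised replicate 2. The call of Orm1 after exercise was also lost with only the 2 groups fitted (adjusted p = 0.0856 by limma). The number of genes called for the difference of exercise effects was 0 under all 18 alternatives, with smallest adjusted p-values from 0.0574 to 0.999.

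Leaving out 1 array gave 46 to 90 called genes for exercise in wild type (78 with all arrays), 16 to 71 for exercise in the knockout (38), 6 to 27 for the genotypes at rest (19) and 5 to 40 after exercise (24). The lowest counts came without wild-type sedentary replicate 1 (46), wild-type exercised replicate 3 (46 and 5), and replicate 1 of the knockout exercised (16) or knockout sedentary (6) group. Without a variance trend, 24 genes were called for exercise in the knockout. With only the 2 groups of the contrast there were 25, and 13 for the genotypes after exercise. Quantile normalization turned the split of the latter from 13 higher and 11 lower to 11 higher and 15 lower. List values without single arrays, and the ranges of the shares, were added after seeing the data. The cause of these shifts was not tested. No paired analysis was possible because the labels number the samples serially and no number is shared between groups.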
